A study of Mus musculus with 32 samples.

Results

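Megakaryocyte and erythroid progenitors (MEP cells) sorted from mouse bone marrow were compared 7 days after tamoxifen had been given to delete Jak2V617F and after vehicle. The comparison uses 6 of the 32 libraries of the series, 3 at day 7 and 3 of vehicle. All mice carried a Jak2V617F allele turned on outside the body by Dre mRNA, and lethally irradiated recipients then received these cells, so both groups are mutant grafts. The day 7 libraries, replicates 1 to 3, came from animals 15, 18 and 7, which received tamoxifen (TAM) to activate Cre and remove the mutant allele. The vehicle libraries came from animals 12, 32 and 33, belong to the same batch (A) and are titled day 0, so treatment and the time that passed cannot be told apart. No group given tamoxifen without a deletable allele was used here, and neither the Cre driver nor the age of the mice is stated. Animals are numbered without any mention of shared sorting days, so the p-values measure the spread between libraries. That spread was estimated over all 16 MEP libraries of the series, not over the 6 compared ones alone. Batch A MEP libraries of day 3 (n = 4), and batch C MEP libraries of ruxolitinib, an inhibitor of JAK1 and JAK2 (n = 3, with 3 vehicle libraries of their own), are set beside the comparison where stated.

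JAK2 is the kinase attached to the receptors for erythropoietin, thrombopoietin and several other cytokines. A bound receptor lets JAK2 phosphorylate STAT5, which enters the nucleus and switches on target genes, some of which feed back on the receptor. The V617F mutation keeps the kinase on without cytokine and drives the red cell and platelet excess of the myeloproliferative neoplasms. MEP cells are the shared precursors of red cells and of megakaryocytes, the platelet-forming cells, and type I interferon acts through JAK1 and TYK2 on an own set of genes in the same cells.

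Total counts were 20.1, 11.2 and 18.2 M in day 7 replicates 1, 2 and 3, against 23.1, 24.1 and 20.7 M in vehicle replicates 1, 2 and 3. Day 7 replicate 2 was the shallowest library, and its low genes carry the most counting error. Genes for odorant and pheromone receptors, which blood progenitors do not use, took 0.101, 0.191 and 0.0832% of the counts at day 7 and 0.0381, 0.0512 and 0.0666% in vehicle. Levels are CPM. In MEP libraries CPM is the count scaled to the library total after that total was multiplied by a scaling factor (TMM). These factors were 1.24 to 1.92 at day 7 and 0.943 to 1.18 in vehicle, so MEP levels are not shares of the raw total. Changes are fitted log2 fold changes, day 7 over vehicle, with their standard error. A gene is said to have risen or fallen where its adjusted p was under 0.05 in edgeR's quasi-likelihood F test over 25274 genes.

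The sort was checked on its own markers. Kit, the receptor that defines the gate, read 986, 650 and 1166 CPM at day 7 and 537, 241 and 270 CPM in vehicle. Ly6a, the gene of Sca1, which an MEP gate excludes, had 16, 11 and 30 counts at day 7 and 0, 0 and 1 counts in vehicle, at most 1.33 CPM. It rose at this very low level (adjusted p = 0.0019, edgeR), and the call was lost with DESeq2. Cd34, which the gate also holds low, read 7.32, 7.84 and 11.6 CPM at day 7 and 5.0, 3.01 and 4.66 CPM in vehicle. Fcgr3, another such gene, read 3.06, 3.08 and 3.2 CPM at day 7 and 1.01, 2.37 and 1.47 CPM in vehicle. Both were higher in every day 7 library than in every vehicle library but did not pass (1.08 ± 0.51 and 0.94 ± 0.54). Fcgr2b overlapped and did not pass either (0.69 ± 0.54). The 6 erythroid progenitor markers summed to 5090 to 7590 CPM at day 7 and 5520 to 9290 CPM in vehicle, led by Car1. Car1 made up most of each day 7 sum, so the sums say little about the other markers. Of the 6, 3 fell, Klf1, Epor and Tfrc, and 0 rose, with their values given below. The 6 megakaryocyte progenitor markers summed to 261 to 394 CPM at day 7 and 63.3 to 98.4 CPM in vehicle, and 5 of them rose.

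One feature of the day 7 libraries of the series touches many of the falls and is therefore given first. In LSK cells, the stem and multipotent progenitors, 4 day 7 libraries were made, of which 3 carry the numbers of the MEP animals, and replicate 4 stood apart from the remaining 3. Of 8022 genes expressed in MEP cells (a mean of at least 10 CPM over the day 7, day 3 and vehicle libraries), 759 were lower by at least 1 on the log2 scale in LSK replicates 1 to 3 than in replicate 4, and 34 were higher by as much. At a gap of 0.5 the counts were 1271 lower and 807 higher. Fth1, the ferritin heavy chain, read 199, 57.8, 49.1 and 1045 CPM in LSK day 7 replicates 1 to 4 and 899 to 1873 CPM in LSK vehicle. In MEP cells all 3 day 7 libraries were low for it, with 59.3, 35.2 and 59.2 CPM, against 1316, 3588 and 2308 CPM in vehicle. The third MEP library was low although LSK replicate 4, which carries the same animal number, 7, was not. The 1271 expressed genes lower by at least 0.5 in those LSK libraries are called split genes below, and the remaining 6743 with enough LSK counts are called held genes, among them the 807. Genes below the expression threshold were classed by the same gap but are not in these counts. Of the 351 expressed genes that fell by more than 2 on the log2 scale in MEP cells, 319 were split. What sets the LSK libraries apart was not tested, and the part it has in the MEP falls was not tested either, so counts are given for held genes beside those for all genes.

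**Figure D1:**
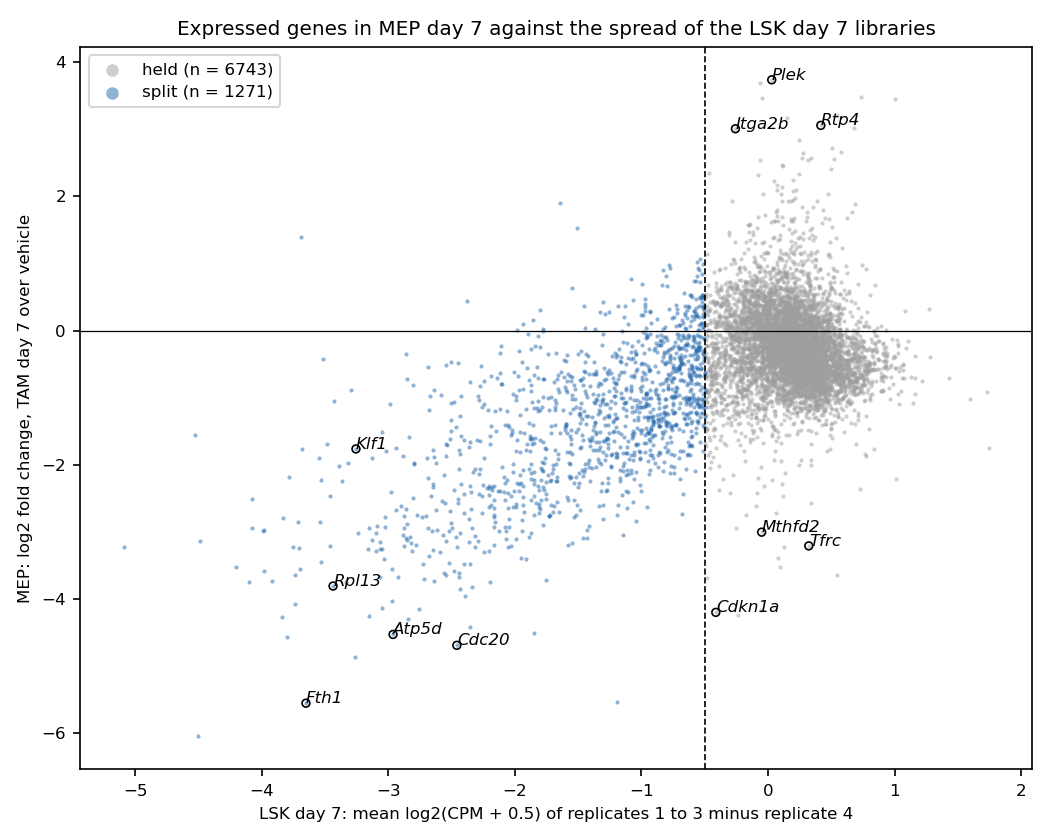
Each point is an expressed gene; the x axis is the mean log2(CPM + 0.5) of LSK day 7 replicates 1 to 3 minus replicate 4, and the y axis is the MEP log2 fold change at day 7 over vehicle. The genes with the largest MEP falls lie to the left, and of 351 that fell by more than 2 on the log2 scale 319 are split genes.

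At day 7, 350 genes had risen and 1778 had fallen, 1.38% and 7.03% of those tested. Among held genes 181 rose and 857 fell, 2.68% and 12.7% of 6743. Among split genes 5 rose and 776 fell, 0.393% and 61.1% of 1271. The balance of directions depends on the scaling, and the classes of genes differed in their medians. The middle gene changed by 0.21 on the log2 scale for all tested genes, -0.37 for expressed genes and 0.44 for the 17252 others. With expressed genes fitted alone their median was 0.02, and 1196 rose and 1546 fell, 14.9% and 19.3%. Changes of expressed genes are best read against -0.37 in the values below, which come from the fit over all genes. The count of rises was 203 without day 7 replicate 3, 177 without vehicle replicate 2 and 206 without vehicle replicate 3, and the count of falls was 1062 without day 7 replicate 2. By library, 15.2% of the tested genes were higher and 14.7% lower in every day 7 library than in every vehicle library.

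**Figure D2:**
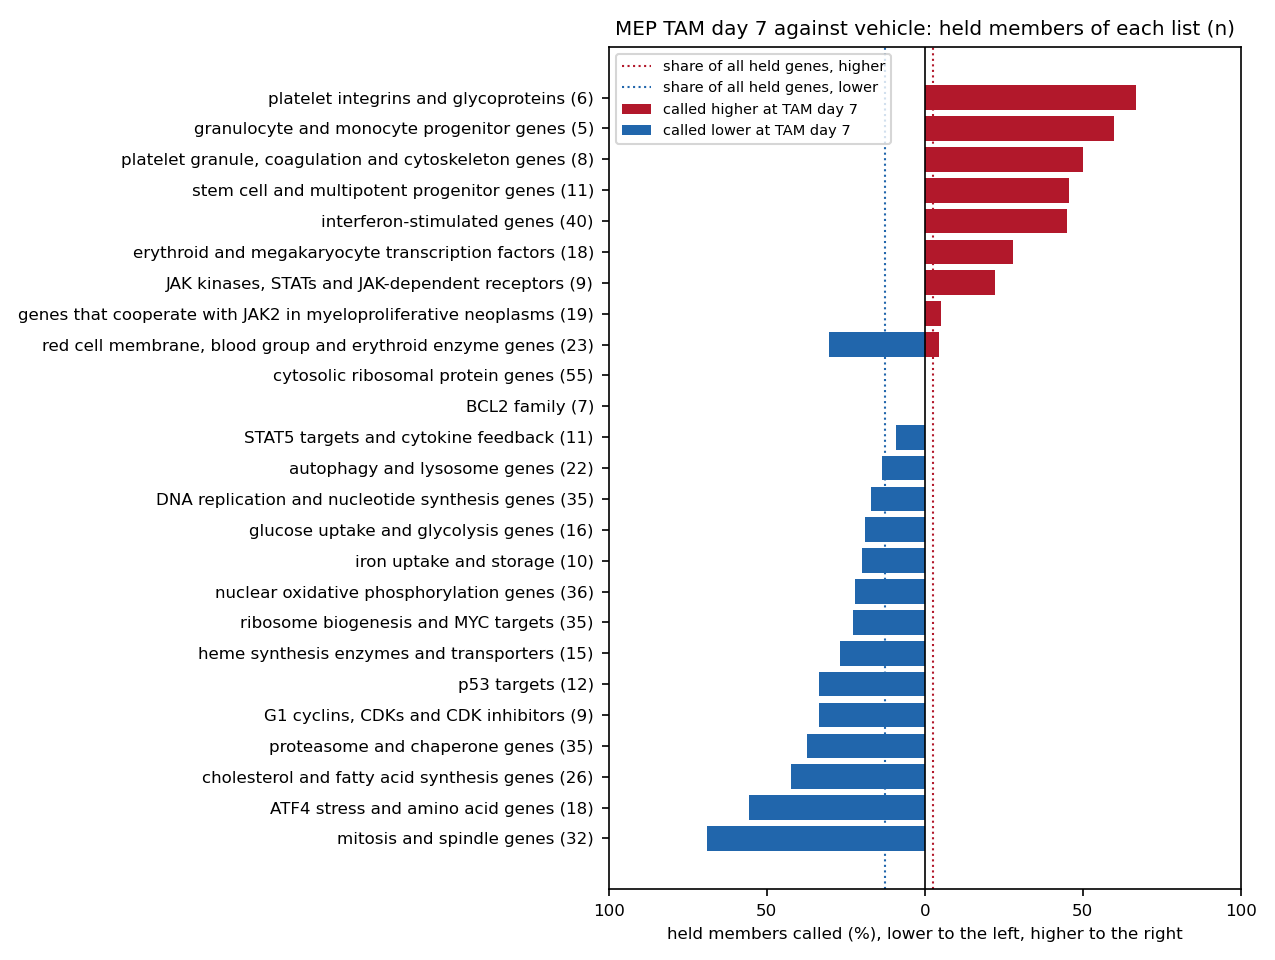
Bars give the percent of held members of each gene list that fell (left) or rose (right) at day 7, with the number of held members in brackets. The mitosis list fell in 22 of 32 held members and the interferon-stimulated list rose in 18 of 40, beside 12.7% falling and 2.68% rising among all held genes.

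Jak2 itself (chromosome 19, 29251828 to 29313080, plus strand, mm10) read 20.9, 11.8 and 25 CPM at day 7 and 16.6, 17.7 and 14.4 CPM in vehicle. The groups overlapped and the change was 0.24 ± 0.30 (adjusted p = 0.71, edgeR). The labels do not say which stretch of the gene Cre removes, so its count cannot serve as a check of the deletion. Among the STAT5 targets Cish, Osm and Fam132b fell. Cish, a STAT5-induced inhibitor that sits on cytokine receptors (chromosome 9, 107296026 to 107302784, plus strand), read 1.11, 1.82 and 1.33 CPM at day 7, against 30.2, 18.9 and 12.5 CPM in vehicle. Every day 7 library lay below every vehicle library, a 14.4-fold lower level (log2 change -3.85 ± 0.47, adjusted p = 2e-06, edgeR). Osm, which encodes the cytokine oncostatin M, read 12.1, 10.7 and 12.8 CPM at day 7 and 69.4, 38.9 and 37.2 CPM in vehicle, again without overlap (-2.03 ± 0.28). Fam132b, the gene of erythroferrone, which erythroblasts secrete under erythropoietin to release iron stores, fell by 2.89 ± 0.58 on the log2 scale, with 0.503 to 1.87 CPM at day 7 and 5.14 to 14.2 CPM in vehicle.

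The promoter of Cish is shown because it carries the STAT motif (TTCNNNGAA, in capitals) next to the start of the gene. It is the RefSeq window of 250 bases before to 50 bases after the start on GRCm38.p6, chr9:107296409-107296708, plus strand.
Cish: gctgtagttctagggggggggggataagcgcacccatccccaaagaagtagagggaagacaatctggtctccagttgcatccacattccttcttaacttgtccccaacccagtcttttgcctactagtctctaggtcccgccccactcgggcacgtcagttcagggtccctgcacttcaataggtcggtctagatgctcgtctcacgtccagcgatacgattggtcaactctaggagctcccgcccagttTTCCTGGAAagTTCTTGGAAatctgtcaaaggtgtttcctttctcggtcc
The 2 matches begin at the start site itself and 11 bases after it. Of the 21 promoters found for the STAT5 target list, 5 (23.8%) hold the motif, against 8.3% of all 32851 promoters of this length. A match is a string of letters and does not show binding.

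Not all STAT5 targets followed Cish. Over the list of STAT5 targets and cytokine feedback genes, 0 of 25 rose and 6 fell, beside 7.03% over all genes. Among the 11 members that were held and expressed, 1 fell, Osm, beside 12.7% of all held genes. Cish is held but below the expression threshold. Socs2, another feedback inhibitor, read 9.57, 16.7 and 9.13 CPM at day 7 and 15.1, 19.8 and 22.1 CPM in vehicle, and the groups overlapped (-0.69 ± 0.32, adjusted p = 0.25, edgeR). Pim1 (-0.38 ± 0.55), the survival gene Bcl2l1 (-0.38 ± 0.24) and Myc (0.10 ± 0.29) did not pass the test. Id1 did not pass either, though it did in the fit of the compared groups alone (-2.6). Pim2 and the cyclin gene Ccnd3 fell by 1.87 and 2.60 on the log2 scale, but Ccnd3 is a split gene and Pim2 shows the same gap below the expression threshold, and the Ccnd3 value was -1.69 without vehicle replicate 2. The list also holds the sialomucin gene Podxl, which read 1.08, 1.35 and 1.6 CPM at day 7, against 34.9, 52.3 and 32 CPM in vehicle, a 29.6-fold lower level (-4.89 ± 0.35). Podxl was too low in LSK cells to class as held or split. Gab2, an adaptor that carries receptor signals to other kinases, is a held gene and read 2.81, 3.74 and 5.19 CPM at day 7 and 58.5, 33.8 and 42.1 CPM in vehicle (-3.52 ± 0.51).

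The receptors moved in different directions. Kit, the stem cell factor receptor, rose by 1.42 ± 0.34, with no overlap between the groups quoted above, and its value was 1.22 and did not pass without vehicle replicate 2. Epor, the erythropoietin receptor, read 122, 26.1 and 102 CPM at day 7 and 327, 356 and 262 CPM in vehicle (-1.92 ± 0.36), but Epor is a split gene, as are Jak3 (-1.56 ± 0.35) and Ifnar1 (-1.29 ± 0.26), which also fell. Stat5a did not pass (0.06 ± 0.25, adjusted p = 0.91, edgeR). Among the 9 held JAK, STAT and receptor genes 2 rose and 0 fell, beside 2.68% and 12.7% of all held genes.

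**Figure D3:**
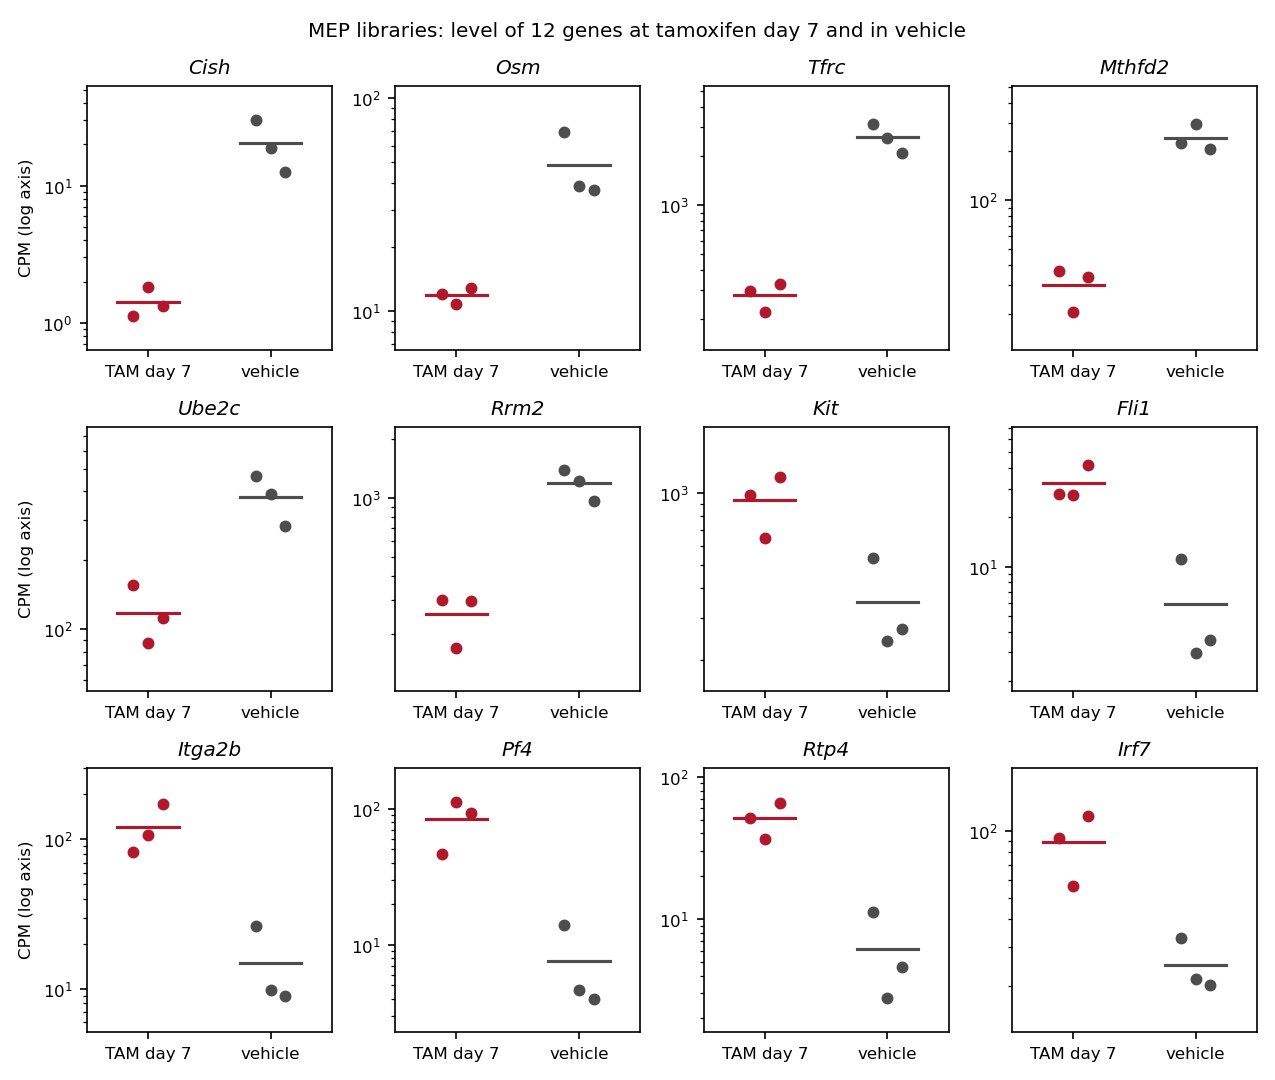
CPM of 12 genes (log axes) in the 3 MEP libraries of day 7 (left) and the 3 of vehicle (right), 1 point a library. For each gene the groups do not overlap: Cish, Osm, Tfrc, Mthfd2, Ube2c and Rrm2 are low at day 7, and Kit, Fli1, Itga2b, Pf4, Rtp4 and Irf7 are high.

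Several platelet and megakaryocyte genes rose, most of them from low levels. Of 23 platelet integrin and glycoprotein genes 6 rose and 1 fell, and of 31 granule, coagulation and cytoskeleton genes 10 rose and 0 fell, beside 1.38% rising over all genes. Their median log2 changes were 0.98 and 0.89. Only 6 and 8 of these genes were held and expressed, and 4 of each rose, beside 2.68% of all held genes. Itga2b, the CD41 integrin chain that marks the lineage, read 82, 106 and 173 CPM at day 7 and 26.2, 9.82 and 8.9 CPM in vehicle (3.01 ± 0.41, adjusted p = 9e-06, edgeR). Pf4, the granule chemokine platelet factor 4, read 46.1, 112 and 92.4 CPM at day 7 and 13.9, 4.65 and 4 CPM in vehicle (3.47 ± 0.64). Plek, the cytoskeletal protein pleckstrin of platelets, read 20.3, 50.4 and 78.7 CPM at day 7 and 9.08, 1.3 and 0.898 CPM in vehicle (3.74 ± 0.70). In all 3 genes vehicle replicate 1 was the highest vehicle library and still lay below every day 7 library.

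Further platelet genes rose with them. Sdpr, a caveolar coat protein, rose 3.82 ± 0.48 on the log2 scale, the prostaglandin synthase gene Ptgs1 2.91 ± 0.45 and the thrombin receptor gene F2rl2 3.28 ± 0.66. Ppbp, a granule chemokine of mature megakaryocytes, reached only 1.48, 2.33 and 4.08 CPM at day 7 and was at 0, 0.118 and 0 CPM in vehicle. The rises of Gp9 (1.18 ± 0.37), Cd9 (1.79 ± 0.46) and Vwf (0.91 ± 0.26) depended on single libraries. Gp9 did not pass without day 7 replicates 1 or 3 or vehicle replicates 1 or 3 (0.89 to 1.08) and was 1.88 without vehicle replicate 2, nor did Cd9 pass without day 7 replicate 3 or vehicle replicates 2 or 3 (1.51 to 1.55). Vwf did not pass without any 1 of the 3 day 7 libraries or vehicle replicates 1 or 3 (0.74 to 0.92). Tubb1, the platelet tubulin, was low in both groups, with 1.33 to 2.24 CPM at day 7 and 0.55 to 1.46 CPM in vehicle. F2r, another thrombin receptor, fell by 1.70 on the log2 scale, is a split gene, and did not pass without vehicle replicate 1 (-1.19). In bulk RNA, more cells of a type and more RNA per cell cannot be told apart.

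Transcription factors of this branch and of earlier progenitors rose as well. Fli1, which drives megakaryocyte genes, read 27.7, 27.6 and 41.6 CPM at day 7 and 11.2, 2.96 and 3.55 CPM in vehicle (2.46 ± 0.57). Meis1, a homeobox factor of stem cells and megakaryocytes, read 31.5, 36.1 and 55.2 CPM at day 7 and 9.04, 6.11 and 5.96 CPM in vehicle (2.54 ± 0.40). Myb, needed by cycling progenitors, read 83.6, 77.8 and 130 CPM at day 7 and 38.3, 26.9 and 33.2 CPM in vehicle (1.57 ± 0.24). Neither Gata1 (-0.35 ± 0.27), the master factor of both branches, nor Tal1 (-0.63 ± 0.31) passed the test. Of 18 held erythroid and megakaryocyte factors 5 rose and 0 fell, beside 2.68% and 12.7% of all held genes. Of the 5, Gata2 (1.32) and Mef2c (1.33) did not pass when single libraries were left out. For Gata2 these were any of the 3 day 7 libraries and vehicle replicates 2 and 3 (1.04 to 1.44), for Mef2c day 7 replicates 2 and 3 and vehicle replicates 2 and 3 (1.04 to 1.31). Klf1, the erythroid activator, read 21.1, 16 and 22.3 CPM at day 7 and 27.9, 119 and 55.2 CPM in vehicle, is a split gene, and did not pass without vehicle replicate 2 (-1.06) or without vehicle replicate 3 or any 1 of the 3 day 7 libraries (-1.71 to -1.89).

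Genes shared with stem cells and myeloid progenitors rose at low to moderate levels. Of 40 stem and multipotent progenitor genes 7 rose and 0 fell, 1 of them Kit, beside 1.38% rising over all genes. Txnip, a glucose uptake brake that is high in resting stem cells, read 232, 164 and 350 CPM at day 7 and 101, 41.8 and 38.6 CPM in vehicle (2.04 ± 0.36). Tek, the angiopoietin receptor, rose by 2.19 ± 0.49 on the log2 scale and Gimap6, a GTPase of the immune-associated family, by 2.41 ± 0.36. Cd34 (1.08 ± 0.51), Hlf (1.06 ± 0.60), Mecom (0.18 ± 0.35) and Flt3 (0.35 ± 0.49), further markers of the stem and multipotent compartment, did not pass, while Ly6a rose as given above. The 7 stem markers summed to 98 to 118 CPM at day 7 and 98.3 to 103 CPM in vehicle, so the ranges overlapped. Most of each sum was Mllt3, with 73.3, 61.7 and 82.5 CPM at day 7 and 83.8, 75.3 and 71.5 CPM in vehicle (-0.09 ± 0.22). The sums therefore say little about the other markers. Of those, Ly6a, Cd34 and Procr (1.54 ± 0.67, which did not pass) were higher in every day 7 library, while Flt3, Hlf and Mecom overlapped. Of 27 granulocyte and monocyte progenitor genes 6 rose, among them the lysozyme gene Lyz2 with 22.8, 28.8 and 25.9 CPM at day 7 and 3.99, 3.51 and 2.08 CPM in vehicle (3.01 ± 0.44). Csrp3, a muscle-type LIM protein, read 22.5, 21.2 and 33.7 CPM at day 7 and 1.56, 1.66 and 2.74 CPM in vehicle (3.69 ± 0.34), and is among the 12 largest rises of abundant genes.

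Some marker RNAs of cells of other lineages were higher at day 7, at levels up to the 93.2 CPM of Nkg7. The 5 neutrophil markers summed to 27.6 to 42.1 CPM at day 7 and 4.54 to 7.43 CPM in vehicle, and 2 of them, S100a8 and S100a9, rose. The 7 B and plasma cell markers summed to 31.6 to 57.2 CPM at day 7 and 5.96 to 7.87 CPM in vehicle, led by Igkc, an antibody light chain with 38.5, 13.4 and 32.9 CPM at day 7. For the 4 eosinophil markers the ranges were 6.85 to 12 CPM at day 7 and 0.817 to 1.56 CPM in vehicle. The 6 T and NK markers summed to 49.1 to 100 CPM at day 7 and 6.29 to 27.5 CPM in vehicle. Most of the day 7 sums was Nkg7, the only 1 of the 6 that rose. Nkg7 is also on the granulocyte and monocyte progenitor list, so these sums do not single out T or NK cells. Nkg7 read 42.4, 57.4 and 93.2 CPM at day 7 and 23.9, 2.29 and 3.02 CPM in vehicle, and its change of 2.73 was 4.59 without vehicle replicate 1 and did not pass without vehicle replicates 2 or 3 (2.26 and 2.29). The 5 dendritic cell markers summed to 36.4 to 58.9 CPM at day 7 and 15.7 to 17.4 CPM in vehicle. For the 5 mast cell and basophil markers the sums were 21.3 to 28.6 CPM at day 7 and 10.3 to 13.9 CPM in vehicle, and for the 6 granulocyte and monocyte progenitor markers 22.8 to 37.6 CPM at day 7 and 13.7 to 16.9 CPM in vehicle. Macrophage markers summed to 14.8 to 19.5 CPM at day 7 and 7.15 to 15.5 CPM in vehicle, and 0 of 6 rose. No marker was at 0 in every vehicle library, and the T cell genes Cd3e (0.62 ± 0.66) and Cd3g (0.33 ± 0.61), the B cell gene Cd79a (0.50 ± 0.68) and the neutrophil gene Ltf (1.08 ± 0.71) did not pass. Genes below the expression threshold, as most of these are, had a median change of 0.44. The part of such cells in the rises of stem, myeloid and interferon genes was not tested.

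Many interferon-stimulated genes rose. Of 54 tested 21 rose and 1 fell, beside 1.38% and 7.03% over all genes, with a median log2 change of 0.82. Of 40 held members 18 rose and 0 fell, beside 2.68% and 12.7% of all held genes. Fitted over held genes alone, 29 of the 40 rose, against 13.8% of all held genes. The gene that fell, Tap1, is split. Irf7, the factor that amplifies the response, read 92.9, 56.7 and 117 CPM at day 7 and 32.9, 21.5 and 20.3 CPM in vehicle (1.83 ± 0.30, adjusted p = 0.00015, edgeR). Rtp4, an interferon-induced chaperone, read 51.3, 36.8 and 65.6 CPM at day 7 and 11.2, 2.8 and 4.57 CPM in vehicle (3.06 ± 0.54). Ifi44 read 24.7, 17.8 and 30.8 CPM at day 7 and 3.03, 4.1 and 5.23 CPM in vehicle (2.57 ± 0.41). The day 7 libraries were higher in each of these genes without overlap, and day 7 replicate 2 was the lowest of them.

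Antiviral sensors and effectors were part of the rise. Oas2, which makes the activator of RNase L, read 21.6, 14.7 and 21.9 CPM at day 7 and 3.85, 1.62 and 2.65 CPM in vehicle (2.84 ± 0.66). The RNA sensor gene Ddx58 rose by 1.64 ± 0.29 on the log2 scale, the tripartite motif gene Trim30a by 1.68 ± 0.33, and Ifitm1, a membrane protein that blocks viral entry, by 3.45 ± 0.53. Isg15, a ubiquitin-like modifier, read 7.08, 5.6 and 10.2 CPM at day 7 and 4.54, 2.05 and 2.41 CPM in vehicle (1.35 ± 0.42). Its rise did not pass without day 7 replicates 1 or 3 or vehicle replicates 2 or 3 (1.07 to 1.39). Bst2 read 52.5, 26.9 and 56 CPM at day 7 and 86.6, 29.2 and 40.9 CPM in vehicle and did not pass (-0.21 ± 0.38).

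The Isg15 promoter is shown as an example of the interferon response element shared by this list, GAAA, any 2 bases and GAAA again (in capitals). It is on GRCm38.p6, chr4:156200769-156201068, minus strand, written 5′ to 3′ in the direction of the gene.
Isg15: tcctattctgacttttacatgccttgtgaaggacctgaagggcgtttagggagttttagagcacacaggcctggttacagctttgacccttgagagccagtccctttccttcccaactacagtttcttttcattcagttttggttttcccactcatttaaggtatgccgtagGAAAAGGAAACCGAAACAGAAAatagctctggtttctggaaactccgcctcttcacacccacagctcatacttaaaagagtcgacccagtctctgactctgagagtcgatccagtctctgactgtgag
The capitals hold 3 overlapping matches, which begin 78, 72 and 66 bases before the start. Of 50 promoters found for the list 22 (44%) hold the motif, and of 19 belonging to the genes that rose 11 (57.9%), against 3.44% of all promoters of this length. The list was drawn up as interferon-induced genes, so a high share describes the list and is not evidence about these samples.

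On the erythroid side, the transferrin receptor and several membrane genes fell. Tfrc, the transferrin receptor through which erythroid cells take up iron, read 298, 220 and 328 CPM at day 7 and 3146, 2572 and 2099 CPM in vehicle. It was 9.24-fold lower with no overlap (-3.21 ± 0.31, adjusted p = 5.7e-08, edgeR), and it is a held gene. Rhag, the Rh-associated ammonia channel of the red cell, read 298, 184 and 231 CPM at day 7 and 839, 991 and 721 CPM in vehicle (-1.84 ± 0.26). Spnb1, the erythroid spectrin beta chain, fell by 2.42 ± 0.39 on the log2 scale and Cldn13, an erythroid claudin, by 1.75 ± 0.31. Of 23 held red cell membrane and enzyme genes 7 fell and 1 rose, beside 12.7% and 2.68% of all held genes. The 1 that rose was the fatty acid carrier gene Cd36, with 29.4, 23.9 and 26.3 CPM at day 7 and 7.29, 11.5 and 6.04 CPM in vehicle (1.68 ± 0.31).

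Other erythroid genes did not pass or were split. Car1, the most abundant erythroid marker, read 6132, 4372 and 6295 CPM at day 7 and 4850, 3785 and 2534 CPM in vehicle and did not pass (0.59 ± 0.28, adjusted p = 0.26, edgeR), though it passed in the fit of expressed genes alone (1.01). Of 23 genes of heme synthesis and transport 10 fell and 0 rose, beside 7.03% falling over all genes. Of 15 held ones 4 fell, beside 12.7% of all held genes. Cpox, which makes protoporphyrinogen, read 18.2, 16.2 and 20.2 CPM at day 7 and 43.8, 56.8 and 40.5 CPM in vehicle (-1.37 ± 0.27). The ferrochelatase gene Fech and the erythroid aminolevulinate synthase gene Alas2 fell by 1.78 and 2.48 on the log2 scale. Fech is split, Alas2 shows the same gap below the expression threshold, and Alas2 did not pass without vehicle replicate 2 (-1.20).

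Globin RNAs and Slc4a1 were high in vehicle replicate 2. Hba-a1 read 40.5, 27.3 and 28.9 CPM at day 7 and 39.9, 364 and 44.8 CPM in vehicle, high in vehicle replicate 2 alone. Slc4a1, the band 3 anion exchanger of late erythroblasts, read 7.44, 2.43 and 2.44 CPM at day 7 and 6.01, 220 and 8.49 CPM in vehicle. Its change of -4.24 ± 1.14 was -0.79 and did not pass without that library, and it did not pass without day 7 replicates 2 or 3 either (-4.02 and -3.98). Hbb-b2 fell by 3.23 ± 0.61 on the log2 scale, with -2.02 without that library, and was below every vehicle library, with 7.66, 11.2 and 10.4 CPM at day 7 and 34.9, 195 and 44.6 CPM in vehicle. Globin genes are near-identical copies, so reads can be shared among them.

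Most genes of the mitosis list fell. Of 36 mitosis and spindle genes 25 fell and 0 rose, beside 7.03% falling over all genes, with a median log2 change of -0.91. Of 32 held members 22 fell, beside 12.7% of all held genes. Fitted over held genes alone, 23 of 32 fell, against 15% of all held genes. Ube2c, which feeds ubiquitin to the anaphase-promoting complex, read 155, 87.4 and 112 CPM at day 7 and 468, 390 and 281 CPM in vehicle (-1.68 ± 0.26, adjusted p = 6.3e-05, edgeR). Plk1, the polo kinase of mitotic entry, read 177, 91.2 and 150 CPM at day 7 and 378, 374 and 270 CPM in vehicle (-1.29 ± 0.27). Ccna2, cyclin A2, fell by 1.60 ± 0.25 on the log2 scale. Cdc20, which read 20.2, 6.4 and 21.2 CPM at day 7 and 364, 484 and 388 CPM in vehicle, is a split gene, as are Ccnb2 (-2.60) and Cenpa (-2.25). Top2a (-0.64 ± 0.24) did not pass. The fall of Mki67, the proliferation antigen (-0.83 ± 0.25), did not pass without any 1 of 5 libraries (-0.66 to -0.97), day 7 replicates 1 to 3 and vehicle replicates 1 and 2.

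The Ube2c promoter is shown because it holds the cell cycle homology region of G2 and M phase genes (TTTGAA, read on either strand, in capitals). It is on GRCm38.p6, chr2:164769679-164769978, plus strand, and the match lies on the opposite strand, as TTCAAA, 29 bases before the start.
Ube2c: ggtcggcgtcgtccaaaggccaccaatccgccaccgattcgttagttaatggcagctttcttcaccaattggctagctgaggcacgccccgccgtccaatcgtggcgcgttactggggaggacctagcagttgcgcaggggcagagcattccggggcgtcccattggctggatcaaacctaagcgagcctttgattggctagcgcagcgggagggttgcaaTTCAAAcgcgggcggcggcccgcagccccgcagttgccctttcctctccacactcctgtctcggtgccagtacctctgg
Of 31 promoters found for the mitosis list 21 (67.7%) hold it, and of 21 belonging to genes that fell 15 (71.4%), against 12.4% of the 7426 promoters of expressed genes and 17.9% of all. The list was drawn up as mitotic genes, so these shares describe it and are not evidence about the samples.

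Among DNA synthesis genes Rrm2 fell. Rrm2, the subunit of ribonucleotide reductase that limits nucleotide supply, read 299, 170 and 296 CPM at day 7 and 1388, 1227 and 965 CPM in vehicle (-2.23 ± 0.27). The replication helicase gene Mcm2 overlapped between the groups (-0.57 ± 0.27). Of 35 held replication and nucleotide genes 6 fell, beside 12.7% of all held genes, and 13 fell in the fit of held genes alone, beside 15%. Ccne1 and Ccne2, the cyclins E of S phase entry, fell by 1.37 ± 0.31 and 1.51 ± 0.28 on the log2 scale. Cdkn1a, the p21 inhibitor, read 7.91, 10.3 and 11.8 CPM at day 7 and 486, 23.6 and 41.5 CPM in vehicle, and its change of -4.20 ± 0.92 was -1.70 and did not pass without vehicle replicate 1. The p53 target Ccng1 was likewise high in that library, with 155, 99.3 and 245 CPM at day 7 and 1357, 224 and 327 CPM in vehicle. Its change of -1.93 was -0.73 and did not pass without it, and it also missed the threshold without day 7 replicates 1 or 2 (-1.90 and -1.74).

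Metabolic genes that a growing progenitor uses fell in several groups. Of 18 held genes of the ATF4 stress and amino acid program 10 fell and 0 rose, beside 12.7% falling among all held genes. Of all 31 tested 14 fell, beside 7.03% over all genes. Mthfd2, the mitochondrial folate enzyme that feeds purine synthesis, read 36.6, 20.4 and 33.6 CPM at day 7 and 225, 295 and 208 CPM in vehicle, 8.02-fold lower (-3.00 ± 0.26, adjusted p = 1.3e-08, edgeR). Atf4, the factor that controls the program, read 59.6, 38.5 and 66.4 CPM at day 7 and 175, 138 and 117 CPM in vehicle (-1.39 ± 0.25). The arginine transporter gene Slc7a1 fell by 1.58 ± 0.24 on the log2 scale, while Asns, asparagine synthetase, did not pass (-0.69 ± 0.27).

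Cholesterol synthesis fell in part. Of 26 held members 11 fell in the fit over all genes, beside 12.7% of all held genes. In the fit over held genes 7 fell, beside 15%. Cyp51, the lanosterol demethylase, read 50, 22.6 and 46 CPM at day 7 and 116, 122 and 87.5 CPM in vehicle (-1.45 ± 0.27), and Idi1 and Sqle fell by 1.47 ± 0.29 and 1.37 ± 0.26. Fabp5, a fatty acid binding protein, read 23.3, 26.9 and 25.4 CPM at day 7 and 236, 458 and 255 CPM in vehicle (-3.65 ± 0.32), with the day 7 libraries close together and far below vehicle.

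Some proteasome, chaperone and nucleolar genes fell. Of 35 held proteasome and chaperone genes 13 fell and 0 rose, and 26 fell in the fit of held genes alone. Psmb4, a proteasome core subunit, read 88.7, 45.8 and 84.6 CPM at day 7 and 258, 232 and 208 CPM in vehicle (-1.67 ± 0.26), and the chaperonin subunit gene Cct8 fell by 1.31 ± 0.27 on the log2 scale. Of 35 held ribosome biogenesis and MYC target genes 8 fell, among them Hspe1, the mitochondrial chaperonin 10 (-1.34 ± 0.23), and the nucleolar gene Noc4l (-1.70 ± 0.30). Of 36 held oxidative phosphorylation genes 8 fell, and of 16 held glycolysis genes 3, beside 12.7% of all held genes. In the fit of held genes alone 16 of the 35 ribosome biogenesis genes fell, 10 of the 36 oxidative phosphorylation genes and 6 of the 16 glycolysis genes, beside 15% of all held genes. Of 55 held cytosolic ribosomal protein genes 0 rose and 0 fell in edgeR's test, and the list's median of -0.45 lay close to that of all expressed genes. Rpl13 and Rps2, the 2 ribosomal protein genes that fell, are both split, and Rps2 did not pass without day 7 replicates 1 or 2 or vehicle replicate 2 (-1.21 to -1.63).

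Among the 12 largest falls of abundant genes, 10 were split. Among these were Fth1, Cdc20, the peptidase gene Thop1, the ATP synthase gene Atp5d, Lmna, which encodes lamins A and C, Reep6, the RNase H2 subunit gene Rnaseh2c, the splicing gene Lsm4 and Spr, a biopterin enzyme. Lmna read 20.9, 18.2 and 19.3 CPM at day 7 and 275, 647 and 409 CPM in vehicle. At day 3 Fth1 averaged 2355 CPM and Lmna 454 CPM, within their vehicle ranges. Median transcript GC content was 51.7% for split and 48.4% for held genes, and median transcript length 3588 and 3499 bases. Of held genes, chosen here after their values were seen, the secreted Wnt antagonist gene Sfrp4 fell without overlap, with 11.1, 7.29 and 5.99 CPM at day 7 and 112, 104 and 224 CPM in vehicle (-4.17 ± 0.41). Cda, cytidine deaminase, read 3.67, 3.97 and 2.04 CPM at day 7 and 40.5, 55 and 29 CPM in vehicle (-3.68 ± 0.40). Plek2, a pleckstrin relative that acts downstream of JAK2 in red cell precursors, read 4.21, 5.74 and 5.99 CPM at day 7 and 18.8, 54.7 and 33.3 CPM in vehicle (-2.75 ± 0.41).

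Day 7 was then set against day 3 of the same batch, to show which changes were present by then. The comparison with vehicle and the one with day 3 share the day 7 libraries. Between day 3 and day 7, 263 genes rose and 1624 fell, 1.04% and 6.43% of those tested, and without split genes 512 fell. A fit of held genes alone gave 446 falls. With expressed genes fitted alone 765 rose and 1299 fell, 9.54% and 16.2%. Rises numbered 151 without day 3 replicate 1 and 160 without day 7 replicate 3.

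Several platelet genes rose after day 3. Means of Pf4 were 7.53 ± 5.56 CPM in vehicle, 4.59 ± 1.39 CPM at day 3 and 83.5 ± 33.9 CPM at day 7 (with the SD), a log2 change of 4.18 between day 3 and day 7. Plek averaged 3.76, 1.46 and 49.8 CPM at these points, and Itga2b 15.0, 17.5 and 120.4 CPM. In the same interval Fli1 rose by 2.94 on the log2 scale and Meis1 by 2.76. Among the 6 largest rises of the interval were also Ctla2a, a protease inhibitor (4.42), the serpin gene Serpina3g (3.38), Nkg7 (3.34) and Ifitm1 (3.31). Of the 31 platelet granule genes 13 rose after day 3, and of the 23 integrin and glycoprotein genes 6, beside 1.04% of all genes tested.

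Several signalling and interferon genes were far from vehicle by day 3 and did not change beyond the threshold afterwards. Cish averaged 20.5, 0.543 and 1.42 CPM in vehicle, at day 3 and at day 7, Osm 48.5, 10.9 and 11.9 CPM, and Podxl 39.7, 1.21 and 1.34 CPM. None of the 3 changed between day 3 and day 7 beyond the threshold (1.38, adjusted p = 0.061 in edgeR, for Cish). Rtp4 averaged 6.17, 44.0 and 51.2 CPM and Irf7 24.9, 112 and 88.9 CPM, and their changes of 0.22 and -0.33 after day 3 did not pass. Of 54 interferon-stimulated genes 1 rose and 3 fell in that interval, beside 1.04% and 6.43% of all genes tested. Myb averaged 32.8, 80.8 and 97.2 CPM and did not pass after day 3 (0.27).

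Mthfd2, Rrm2 and Ube2c also fell between day 3 and day 7. Mthfd2 averaged 242.7, 75.0 and 30.2 CPM at the 3 points and fell by 1.31 between day 3 and day 7, Rrm2 fell by 1.36 and Ube2c by 1.13 on the log2 scale. Of 32 held mitosis genes 13 fell after day 3, of 18 ATF4 genes 3, of 35 replication genes 3 and of 35 ribosome biogenesis genes 1. Of 26 cholesterol genes 2 fell, and of 36 oxidative phosphorylation and 16 glycolysis genes 0. Over all genes tested 6.43% fell, and 16.2% in the fit of expressed genes alone. The share over held genes was not counted, so the smaller counts are not read as a change of their list. Tfrc averaged 2606, 488 and 282 CPM, and its later change of -0.79 did not pass (adjusted p = 0.083, edgeR). Among the held genes with the largest falls after day 3 were Slc25a21, a mitochondrial carrier (-2.35), Spnb1 (-2.29), Hif3a (-2.14) and the signalling regulator Rgs10 (-2.01). Spnb1 averaged 172 CPM at day 3, and no test of day 3 against vehicle is given here.

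**Figure D4:**
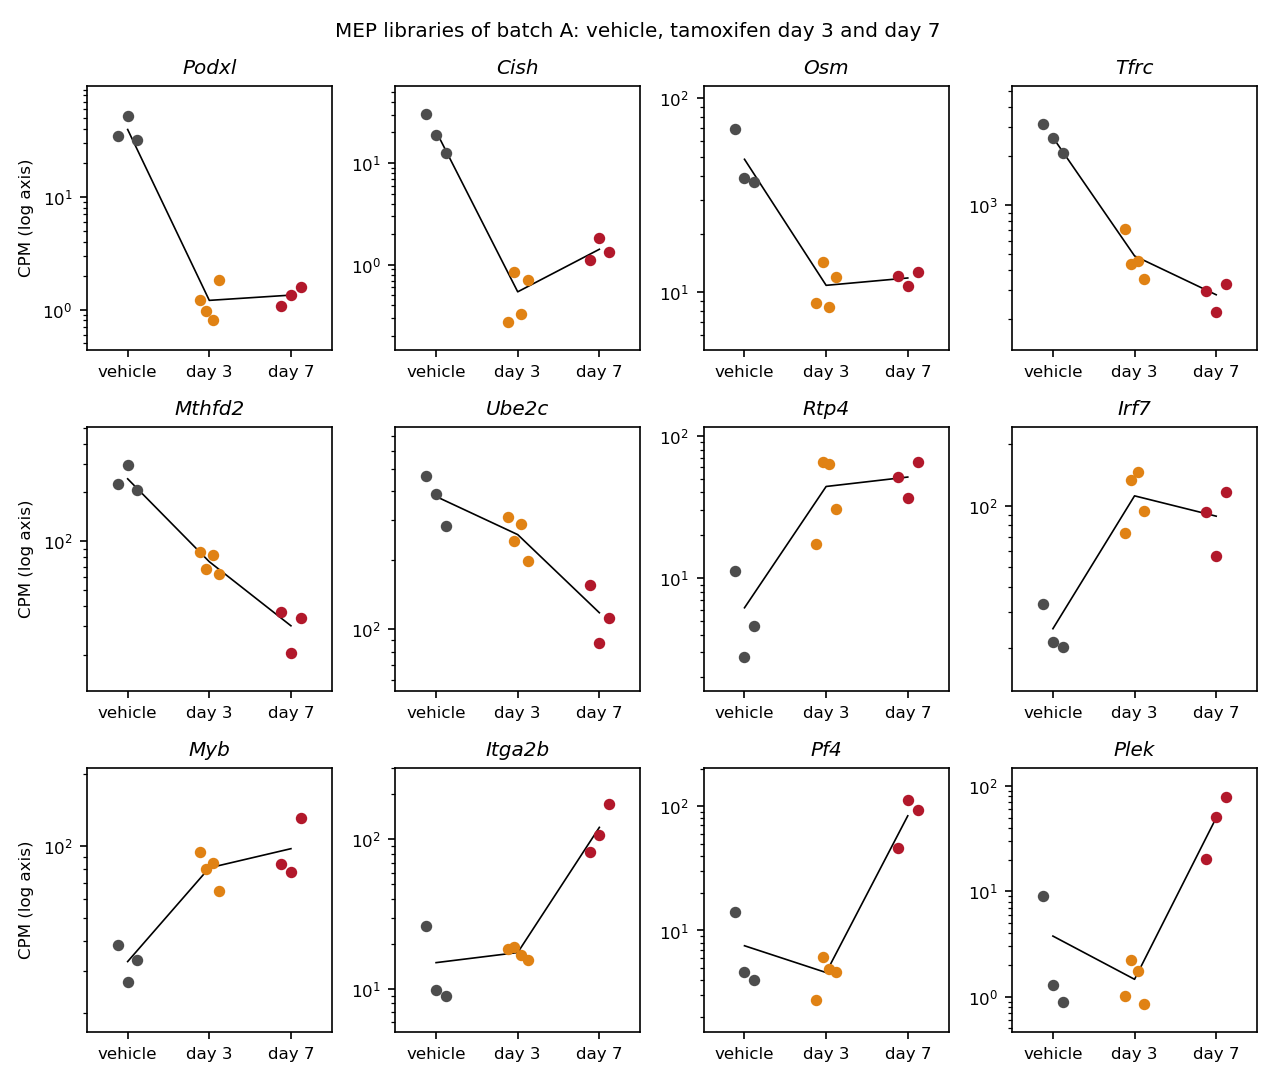
CPM of 12 genes (log axes) in MEP libraries of batch A in vehicle, on day 3 and on day 7 (3, 4 and 3 libraries), with 1 point a library and a line through the means. Podxl, Cish and Osm are already low and Rtp4, Irf7 and Myb already high at day 3, while Itga2b, Pf4 and Plek are high only at day 7.

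Finally the day 7 response was set against that to ruxolitinib, each relative to vehicle of its own batch. The ruxolitinib and vehicle libraries of batch C were deeper, 34.4 to 55.5 M counts, and the 3 vehicle libraries carry the same animal numbers as those of batch A. Odorant and pheromone receptor genes took 0.00131 to 0.00421% of counts under ruxolitinib. Over all genes the difference between the responses passed for 36.5% of genes as higher and 9.46% as lower, and many of these are low genes. The difference is therefore given from the fit of 8022 expressed genes, where 1365 (17%) were higher and 1265 (15.8%) lower in the day 7 response.

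Interferon genes separated the responses. Of 42 expressed members 31 were higher and 0 lower in the day 7 response than in the ruxolitinib response. Among all expressed genes the shares were 17% higher and 15.8% lower. Irf7 changed by 1.83 ± 0.30 at day 7 and -2.30 ± 0.31 under ruxolitinib, a difference of 4.61 (adjusted p = 9.7e-07, edgeR), and Rtp4 by 3.06 ± 0.54 and -4.07 ± 0.62, a difference of 7.62. For Ifi44 the changes were 2.57 ± 0.41 at day 7 and -2.58 ± 0.48 under ruxolitinib, and for Oas2 they were 2.84 ± 0.66 and -1.67 ± 0.69, of which the ruxolitinib value did not pass (adjusted p = 0.053, edgeR).

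Itga2b, Pf4 and Plek rose under both. Itga2b changed by 3.01 ± 0.41 at day 7 and 3.56 ± 0.42 under ruxolitinib (difference -0.02, adjusted p = 0.98, edgeR), Pf4 by 3.47 ± 0.64 and 3.37 ± 0.63, and Plek by 3.74 ± 0.70 and 3.71 ± 0.69. Meis1 changed by 2.54 ± 0.40 at day 7 and 3.04 ± 0.41 under ruxolitinib. Cish changed by -3.85 ± 0.47 at day 7 and -3.22 ± 0.45 under ruxolitinib. A p that misses the threshold does not show that the responses are equal.

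Mthfd2, Rrm2, Ube2c and Tfrc were lower in the day 7 response than in the ruxolitinib response. Mthfd2 changed by -3.00 ± 0.26 at day 7 and -0.16 ± 0.24 under ruxolitinib, a difference of -2.35 (adjusted p = 3.3e-06, edgeR). Rrm2 changed by -2.23 ± 0.27 and -0.44 ± 0.26 (difference -1.29), and Ube2c by -1.68 ± 0.26 and -0.38 ± 0.25 (difference -0.77). Tfrc fell under both, by 3.21 at day 7 and by 1.63 under ruxolitinib (difference -1.09, adjusted p = 0.0083, edgeR). In the day 7 response 13 of 21 expressed ATF4 genes were lower than in the ruxolitinib response, 15 of 35 mitosis genes (2 were higher), 30 of 42 proteasome and chaperone genes and 3 of 29 cholesterol genes, beside 15.8% of all expressed genes. Some of these members are split genes, and the arms were of different batches, so batch and arm cannot be told apart.

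**Figure D5:**
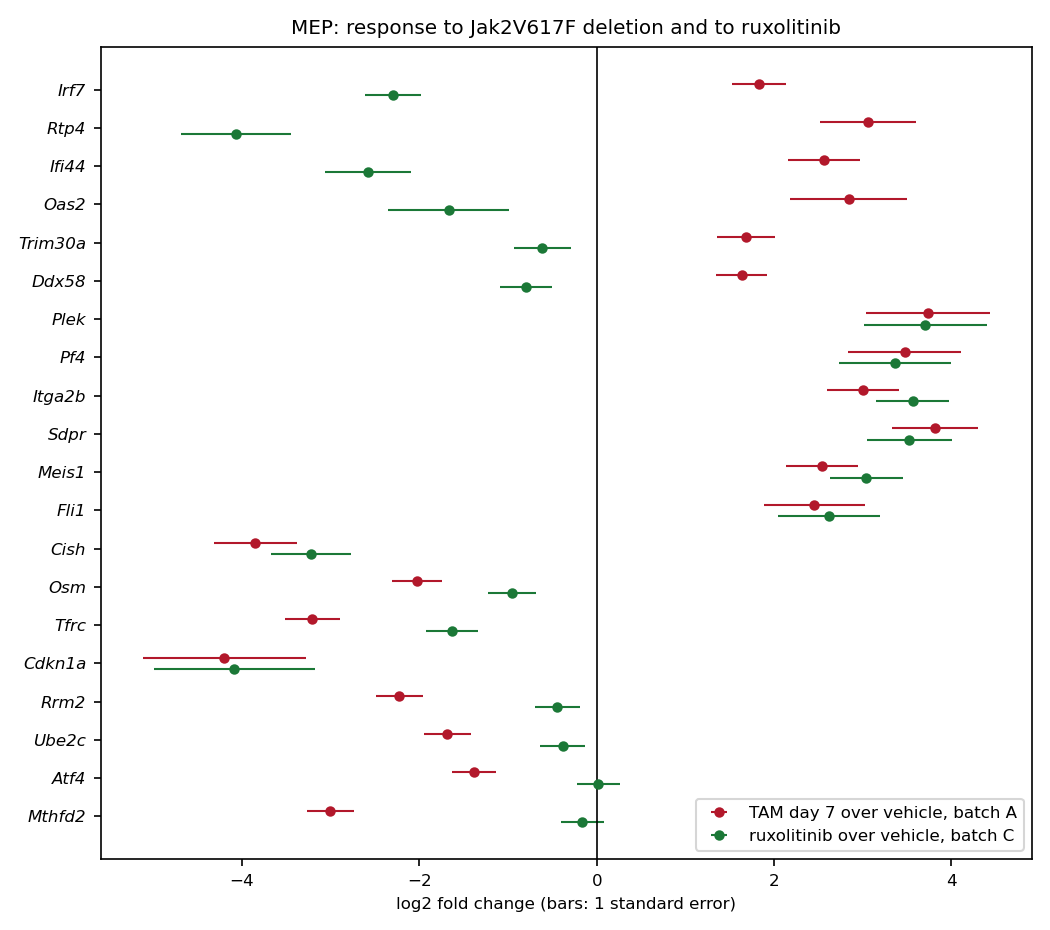
Log2 fold changes of 20 genes in MEP cells at day 7 after deletion over batch A vehicle and under ruxolitinib over batch C vehicle, with bars of 1 standard error. Irf7, Rtp4 and Ifi44 lie on opposite sides of 0, Plek, Pf4 and Itga2b lie together on the right, and Mthfd2 and Rrm2 lie near 0 under ruxolitinib.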

How the data were processed

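Sorted MEP cells were profiled by RNA sequencing, and LSK libraries served only to class genes. Per the labels, RNA came from cells sorted into TriZOL (Direct-Zol kit) and went into Takara HT-Seq paired-end libraries. STAR, featureCounts and mm10 are named in the submitters' processing notes. The authors deposited raw read counts, 33924 gene symbols in 32 libraries, and no unit other than the count was used. Versions, annotation, strand and the handling of multiply aligned reads are not stated, so overlapping, antisense and near-identical genes can share reads.

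edgeR 4.0.16 in R 4.3.3 (quasi-likelihood F test, two-sided) was fitted to the 16 MEP libraries with a mean per group, after TMM scaling and filterByExpr with a minimum count of 10, and p was adjusted by Benjamini-Hochberg over 25274 genes with a threshold of 0.05. TMM factors were 1.24 to 1.92 at day 7 and 0.943 to 1.18 in vehicle, and over expressed genes 1.07 to 1.08 at day 7 and 0.985 to 1.03 in vehicle. Replicates differed by more than sampling noise (chi-square per degree of freedom 13.7 to 27 at day 7 and 25.1 to 55.5 in vehicle). Gene classes used log2(CPM + 0.5) and a mean of at least 5 CPM in 11 LSK libraries of batch A. The fit was also run on simulated counts, with as many genes raised as lowered and no split genes. That run cannot speak to the scaling of these libraries or to the split genes.

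Members and the 35 gene lists were chosen with earlier results of these data known. Named genes are Jak2, the 12 largest rises and falls with a mean of at least 10 CPM, no overlap and the same sign over expressed genes, up to 5 called genes of each list with a panel, and 6 rises and falls against day 3. Positions are GENCODE M21 (28553 symbols matched). Promoters are RefSeq, found for 706 of 920 tested list members. Alternatives were RLE factors, DESeq2 1.42.0, no filter, compared groups alone, expressed genes alone, an absolute log2 change of at least 1, a replicate block, each library left out, and genes shifted by over 1 (log2) between vehicle batches left out. Fits of held genes alone and counts without split genes were added after seeing the data. Some genes that the rule names are not reported here.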

Additional observations from a re-analysis of the deposited data

Results flagged for a closer look

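In LSK day 7, a group of 4 libraries, 36 of the genes named above were examined for a library far from the others, by the gap to its nearest neighbour as a share of the group's range. Chance flags about 1 in 20 groups, and 4 genes were flagged. That rate cannot be set against this count, because the same 4 libraries class genes as held or split. Some of the 36 were picked as held genes, so the flags are no separate check of the classes. In 3 of the flagged genes replicate 4 stood above the others. The ferritin gene Fth1 had a share of 0.849 with 1045 CPM in that library, Lsm4 0.906 with 110 CPM and Spr 0.962 with 24.2 CPM. For Tfrc it was replicate 3 that stood above, with a share of 0.843 and 163 CPM. Groups of 3 libraries, which include both MEP groups compared here, were not examined in this way.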

How the results depend on the processing

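No named gene that passed the test changed direction under any alternative run. The number of genes higher at day 7 than in vehicle, 350, was 941 with DESeq2, 901 with the compared groups alone, 1196 with expressed genes alone and 932 with held genes alone, and 177 to 346 when single libraries were left out. The number lower, 1778, was 1011 with held genes alone, 953 without split genes and 1062 to 1890 when single libraries were left out. Higher at day 7 than at day 3 were 263 genes, 725 with DESeq2, 569 with the compared groups alone, 765 with expressed genes alone and 151 to 219 with single libraries left out. Lower were 1624, 446 with held genes alone, 512 without split genes and 1097 to 1692 with single libraries left out. Fits of held or expressed genes alone test fewer genes and scale on them; otherwise the cause was not tested.

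With the replicate number as a block, 346 genes were higher and 1894 lower than in vehicle, and 219 higher and 1771 lower than at day 3. Same-numbered libraries of day 7 and vehicle deviated together at correlations of -0.0205, 0.0289 and -0.319 over 8022 genes, so the numbers do not pair the libraries. With 3 libraries a group and 11.2 M counts in the shallowest, small changes of low genes were not detectable.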
